A study of Homo sapiens with 4 samples.

Results

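A set of 9 well-known long noncoding RNAs (lncRNAs) were followed in RNA that HEK293T cells, an established line from human embryonic kidney, released into their medium: MALAT1, NEAT1, KCNQ1OT1, TUG1, MEG3, PVT1 and MIAT, which are nuclear or found in both compartments, and NORAD and OIP5-AS1, which are cytoplasmic. They were chosen by name, as 7 and 2 genes among the 61543 genes of the deposited table, and all 9 were found there and passed the filter on low counts. The cells secreted EPN24 nanocages, protein shells that leave the cell and carry RNA with them. The EPN24-Cas13d group carries a fusion of the nanocage protein with Cas13d, a CRISPR protein that binds RNA, and the EPN24 group carries the nanocage protein without it. Each group has 2 libraries, made from 200 µl of filtered supernatant, and no guide RNA is named in the labels. RNA of whole cells, or of medium from cells lacking nanocages, was not used here.

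Long noncoding RNAs act as RNA and are not translated, and many work where they are made. MALAT1 accumulates in nuclear speckles, bodies rich in splicing factors, and NEAT1 is the architectural RNA of paraspeckles. NORAD is an abundant cytoplasmic RNA with many copies of the sequence bound by Pumilio proteins, which promote decay of the messages they bind, and it keeps these proteins away from other RNAs.

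Sequences of NORAD and MALAT1 show how differently the leading members of the 2 classes are built. NORAD (ENSG00000260032.2, GRCh38, chromosome 20, 36045618 to 36051018 on the minus strand) is a single exon of 5401 bp. Its reference transcript, 5339 nt long, was searched on the transcribed strand for the Pumilio recognition sequence TGTANATA and held 15 copies, 2.81 per kb, with 1 copy on the other strand. Of the 2130 genes whose longest transcript was within 10% of that length, 42.8% had any copy and 3 genes, NORAD included, had 15 or more. In 3 pairs the copies start 9 bases apart. They are shown 5′ to 3′ with 20 bases on each side and the recognition sequences in capitals, at chr20:36049483-36049539, chr20:36048286-36048342 and chr20:36047650-36047706 of GRCh38 on the minus strand:
NORAD pair 1: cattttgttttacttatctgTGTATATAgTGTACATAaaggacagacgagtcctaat
NORAD pair 2: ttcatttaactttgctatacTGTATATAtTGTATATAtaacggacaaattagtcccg
NORAD pair 3: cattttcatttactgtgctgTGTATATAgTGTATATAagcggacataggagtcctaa

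MALAT1 (ENSG00000251562.9, GRCh38, chromosome 11, 65497688 to 65506516 on the plus strand) had no copy of TGTANATA in its 8708-nt reference transcript and 3 on the other strand. Its 3′ end is instead known for U-rich stretches that pair with a downstream run of A in a triple helix, which protects the RNA from decay without a poly(A) tail. The stretch at chr11:65506014-65506125 on the plus strand is bases 8253 to 8364 of the 8708-nt reference transcript, near its last base but not reaching it. It is shown 5′ to 3′ with a U-rich motif and the run of 13 A in capitals:
MALAT1 3′ end: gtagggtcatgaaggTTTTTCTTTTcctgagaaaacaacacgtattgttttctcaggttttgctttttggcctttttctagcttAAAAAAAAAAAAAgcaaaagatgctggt
Among the other members, TGTANATA occurred 9 times in the 91667-nt KCNQ1OT1 transcript, 6 times in NEAT1, 2 times in TUG1, once in MEG3 and in OIP5-AS1, and not in MIAT or PVT1. A match is a description of the letters and does not show that a protein is bound.

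With Cas13d the gene counts summed to 5097332 and 4863449 per library, and without it to 1830860 and 1903492. ERCC spike-in RNA, added to a fixed volume of supernatant, made up 1.66% to 1.73% of all counts with Cas13d and 19.6% to 20.9% without. Values are therefore given on 2 scales. TMM scaling compares a gene with the other genes of its library, in CPM (counts scaled to a common library total after composition scaling), and ERCC scaling compares counts per spike-in count. Going from the former to the latter moved the median over tested genes, as a log2 fold change, up by 3.34, from -0.96 to 2.38. All 8 markers of the cell line that were looked up had counts in every library. The summed CPM of 5 markers of blood and liver cells was 3.37 to 5.03 with Cas13d and 24.1 to 25.6 without. Of these, PTPRC had 8 and 2 counts with Cas13d and 17 and 17 without, and ALB 6 and 10 against 10 and 6. Counts in every library therefore do not set the 2 marker lists apart. CD3E was at 0 in EPN24-Cas13d replicate 1, HBB in 3 of 4 libraries and FGB in both EPN24-Cas13d libraries. The part of such cells in the results was not tested. Whether the replicates are separate cultures is not stated, so the p-values cover the spread of these libraries alone, which may be technical. In bulk supernatant RNA, fewer releasing cells and less RNA released per cell cannot be told apart.

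NORAD was the most abundant member in EPN24 and was lower in EPN24-Cas13d on both scales. It had 558 and 630 counts in the EPN24 libraries and 68 and 50 in the EPN24-Cas13d libraries, although the latter were sequenced more deeply. In TMM-scaled CPM these were 249 and 298 against 16.3 and 12.6, and the groups were far apart. The log2 fold change was -4.23 with an approximate SE of 0.18 (edgeR's quasi-likelihood test, adjusted p = 3.84e-11). Relative to the spike-in the difference was smaller and in the same direction. NORAD had 1.25 and 1.25 counts per 1000 ERCC counts in EPN24 and 0.759 and 0.609 in EPN24-Cas13d, a log2 fold change of -0.87, SE 0.23 (edgeR adjusted p = 0.00512). With ERCC scaling 2.33% of all tested genes were called lower and 58.4% higher. The authors' deposited table gives NORAD a log2 fold change of -0.90 with an adjusted p of 0.0446.

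OIP5-AS1, a cytoplasmic lncRNA that binds the RNA-stabilising protein ELAVL1 (ENSG00000247556.6, chromosome 15, 41283990 to 41309737 on the plus strand), was sparse in all libraries. It had 35 and 42 counts in EPN24 and 32 and 29 in EPN24-Cas13d, or 15.6 and 19.9 against 7.69 and 7.30 CPM, and the groups did not overlap. Its log2 fold change was -1.24, SE 0.37 (edgeR adjusted p = 0.00712), and turned to 2.12, SE 0.38, with ERCC scaling (adjusted p = 2.85e-04). The call under TMM scaling was lost when EPN24-Cas13d replicate 1 was left out (-1.21, adjusted p = 0.0513), when its replicate 2 was (-1.13, 0.0659), with the DESeq2 Wald test (-1.26, 0.0566) and with no filter on low counts (-0.88, 0.0803). Relative to the spike-in, NORAD was lower and OIP5-AS1 higher.

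**Figure D1:**
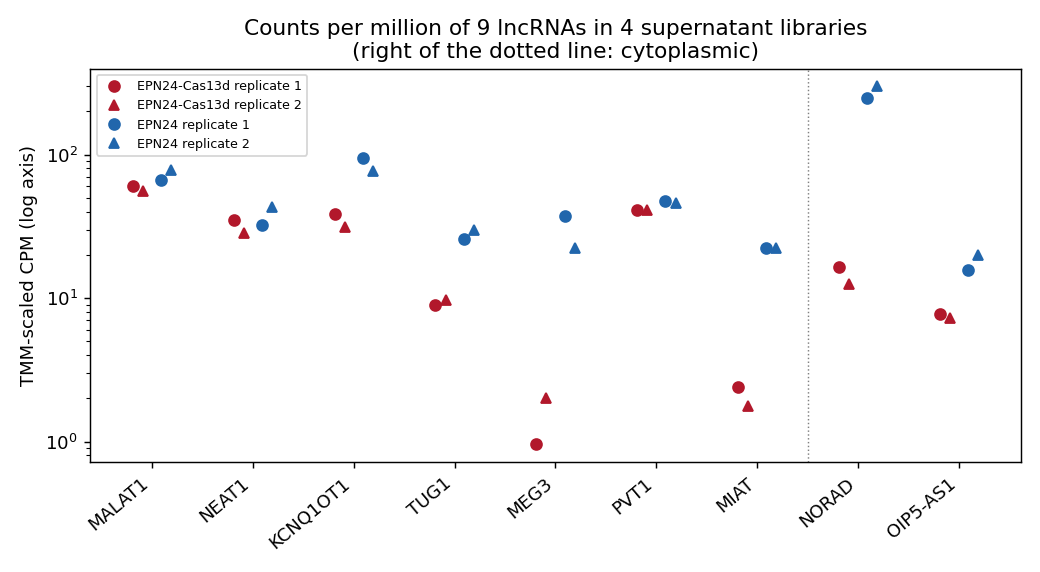
TMM-scaled CPM (log axis) of the 9 lncRNAs, with 1 point per library, red for EPN24-Cas13d and blue for EPN24. NORAD drops from 249 and 298 CPM in EPN24 to 16.3 and 12.6 in EPN24-Cas13d, while the points of NEAT1 overlap between groups.

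Among the nuclear and mixed members, MALAT1, NEAT1 and PVT1 did not pass the test under TMM scaling, and that outcome turned on the scaling, the filter and the unit of counting. MALAT1 had 251 and 223 counts with Cas13d and 148.5 and 165.5 without. In CPM this was 60.3 and 56.1 against 66.2 and 78.3. The groups did not overlap, but the log2 fold change of -0.31, SE 0.18, did not pass the test (edgeR adjusted p = 0.122). NEAT1 (ENSG00000245532.10, chromosome 11, 65422774 to 65445540 on the plus strand) had 144.5 and 113 counts with Cas13d and 72.5 and 90.5 without, that is 34.7 and 28.4 against 32.3 and 42.8 CPM. Its groups overlapped, and the log2 fold change was -0.24, SE 0.24 (edgeR adjusted p = 0.363). PVT1, a lncRNA transcribed beside MYC on chromosome 8, measured 41.1 and 40.8 against 47.6 and 45.7 CPM, with a log2 fold change of -0.19, SE 0.20 (edgeR adjusted p = 0.400). Without EPN24 replicate 1, MALAT1 (-0.57, adjusted p = 0.00521) and NEAT1 (-0.57, adjusted p = 0.0334) were called lower. Scaled by total counts alone, MALAT1 (-0.88), NEAT1 (-0.81) and PVT1 (-0.76) were called lower (edgeR adjusted p = 4.97e-04, 0.00674 and 0.00418), and a stricter filter gave -1.17, -1.10 and -1.05, also called. Of the whole counts in a library 66.8% to 72.4% were even, and whether both mates of a pair were counted is not stated. With all counts halved, MALAT1 (-0.70), NEAT1 (-0.64) and PVT1 (-0.57) were again called lower (edgeR adjusted p = 5.68e-04, 0.0140 and 0.0101). With no filter on low counts the values turned to 0.049, 0.12 and 0.17 and were not called.

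Relative to the spike-in these 3 RNAs were higher with Cas13d. MALAT1 had 2.80 and 2.72 counts per 1000 ERCC counts with Cas13d and 0.334 and 0.329 without, a log2 fold change of 3.06, SE 0.20 (edgeR adjusted p = 2.11e-08). NEAT1 rose by 3.13, SE 0.25 (adjusted p = 1.60e-07), and PVT1 by 3.17, SE 0.24 (adjusted p = 8.36e-08). All 3 lay above the median of all tested genes, which was 2.38 on this scale.

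KCNQ1OT1 and TUG1 were lower under TMM scaling and higher relative to the spike-in. KCNQ1OT1 (ENSG00000269821.1, chromosome 11, 2608328 to 2699994 on the minus strand) is an unspliced RNA antisense to KCNQ1 that silences imprinted neighbours on the paternal chromosome. It had 159.5 and 124 counts with Cas13d and 212 and 163 without, or 38.3 and 31.2 against 94.6 and 77.2 CPM, and the groups did not overlap. Its log2 fold change was -1.30, SE 0.20 (edgeR adjusted p = 4.43e-05), turning to 2.05, SE 0.25, with ERCC scaling (adjusted p = 1.14e-05). TUG1 (ENSG00000253352.10, chromosome 22, 30969245 to 30979395 on the plus strand), which the authors' deposited table lists as protein-coding, is found in the nucleus and the cytoplasm. It measured 9.01 and 9.69 against 25.9 and 29.6 CPM. The log2 fold change was -1.56, SE 0.31 (edgeR adjusted p = 4.23e-04), and 1.80, SE 0.33, with ERCC scaling (adjusted p = 3.79e-04). With the length trend removed KCNQ1OT1 turned to 0.40 and was not called (adjusted p = 0.0712), and with the GC trend removed neither KCNQ1OT1 (-0.29, 0.198) nor TUG1 (-0.43, 0.229) was called.

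MEG3 and MIAT had at most 10 counts in an EPN24-Cas13d library and were lower there under TMM scaling. MEG3 (ENSG00000214548.18, chromosome 14, 100779410 to 100861031 on the plus strand) is expressed from the maternal copy of the imprinted DLK1 locus. It had 4 and 8 counts with Cas13d and 84 and 47.5 without. The exact Poisson 95% intervals of the 2 low counts are 1.09 to 10.2 and 3.45 to 15.8 and cover counting error only. MIAT (ENSG00000225783.9, chromosome 22, 26646411 to 26676475 on the plus strand), a nuclear RNA of neurons also known as Gomafu, had 10 and 7 counts with Cas13d and 50 and 47 without. In neither gene did the groups overlap in CPM. The log2 fold changes were -4.31, SE 0.47 (edgeR adjusted p = 1.68e-06), and -3.39, SE 0.44 (edgeR adjusted p = 9.46e-06). Relative to the spike-in the groups overlapped and no call was made, with -1.01 for MEG3 (adjusted p = 0.169) and -0.057 for MIAT (adjusted p = 0.933).

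Across the 9 members, TMM scaling called 6 of 9 members lower and 0 higher, where 48.2% and 32.6% of all 20476 tested genes were called lower and higher, 80.9% in all. No member had a positive log2 fold change in that fit, so 0 were higher at an unadjusted p under 0.05 too, and the DESeq2 Wald test and limma-voom also called 0 higher. Total counts, the stricter filter or halved counts each called all 9 lower. In those settings 11161, 4889 and 6970 of all genes were called lower, and 5559, 4780 and 5859 higher. Total counts tested the same 20476 genes, while the stricter filter and halved counts changed which genes were tested. The number tested in those 2 settings is not given here, so their gene counts are not shares of 20476. The 9 of 9 members called there therefore have no share of all genes beside them. In 8 of 9 members, all but NEAT1, both EPN24-Cas13d values lay below both EPN24 values, as in 54.3% of tested genes; 36.8% lay above, so that 91.2% did not overlap. The median log2 fold change was -1.30 for the members, -0.96 for all tested genes and -2.95 for the 3802 tested lncRNA genes. With ERCC scaling 6 members were higher, NORAD was lower, and MEG3 and MIAT were not called, beside 58.4% higher, 2.33% lower and 60.7% in either direction among all tested genes. The 6 members higher did not overlap between groups, as 65.9% of tested genes did not in that direction, and NORAD lay below, as 13.6% did, 79.5% in all. The median was 2.05 for the members, 2.38 for all tested genes and 0.34 for tested lncRNA genes. The 7 nuclear and mixed members ranged from -4.31 to -0.19 under TMM scaling, a range in which both cytoplasmic members also lay.

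**Figure D2:**
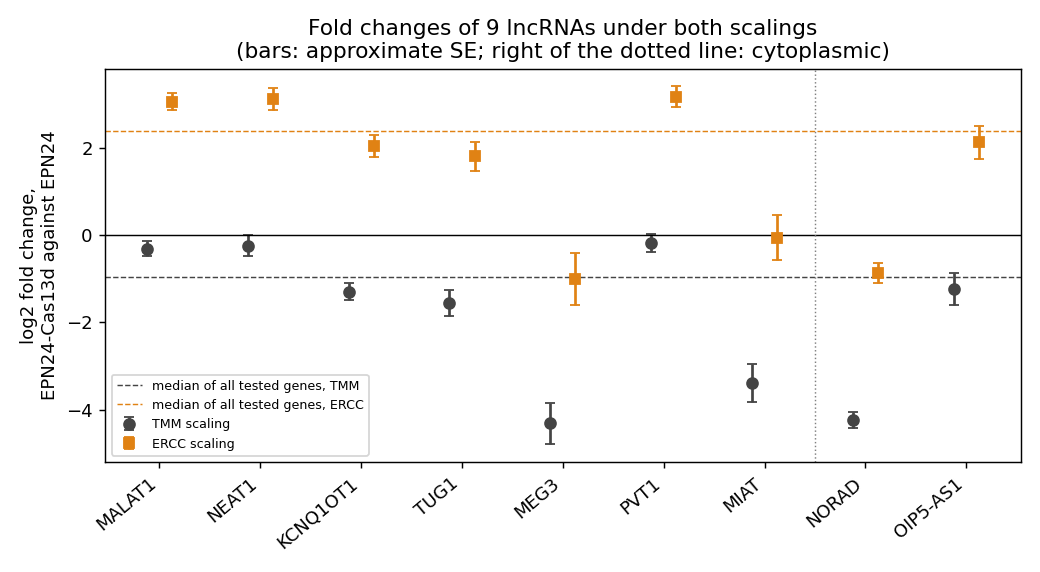
Log2 fold changes of EPN24-Cas13d against EPN24 under TMM scaling (grey) and ERCC scaling (orange), with approximate SE bars and dashed lines at the medians of all tested genes (-0.96 and 2.38). NORAD is the only member called lower on both scales, and MEG3 and MIAT lie at -4.31 and -3.39 under TMM scaling.

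A ratio of 2 RNAs within a library does not depend on either scaling. The summed counts of NORAD and OIP5-AS1 per count of the 7 nuclear and mixed members were 0.129 and 0.117 with Cas13d and 0.810 and 0.999 without, a log2 difference of -2.88. In EPN24 that sum is mostly NORAD, with 558 and 630 counts beside 35 and 42 for OIP5-AS1. The difference therefore describes NORAD more than cytoplasmic lncRNAs as a class. NORAD alone per MALAT1 count was 0.271 and 0.224 with Cas13d and 3.76 and 3.81 without, a ratio 15.3 times as high in EPN24. OIP5-AS1 per MALAT1 count was 0.127 and 0.130 against 0.236 and 0.254, 1.90 times as high in EPN24.

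The nuclear and mixed members differed among themselves when set against MALAT1. MEG3 per MALAT1 count was 0.0159 and 0.0359 with Cas13d and 0.566 and 0.287 without, 16.5 times as high in EPN24, and the ratio of MIAT was 8.71 times as high. TUG1 and KCNQ1OT1 were 2.39 and 2.02 times as high against MALAT1 in EPN24. NEAT1 per MALAT1 count was 0.576 and 0.507 against 0.488 and 0.547, and PVT1 0.682 and 0.727 against 0.719 and 0.583, and both overlapped between groups. These ratios were described without a test. Reads at the density of olfactory receptor genes, given below, would make up 78.0% and 77.9% of KCNQ1OT1 counts in EPN24. These shares were 65.3% and 41.8% for OIP5-AS1, 56.6% and 34.9% for NEAT1, and 10.7% and 7.39% for MALAT1. The ratios to MALAT1, here and above, were not corrected for such reads, and their direction may depend on them.

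**Figure D3:**
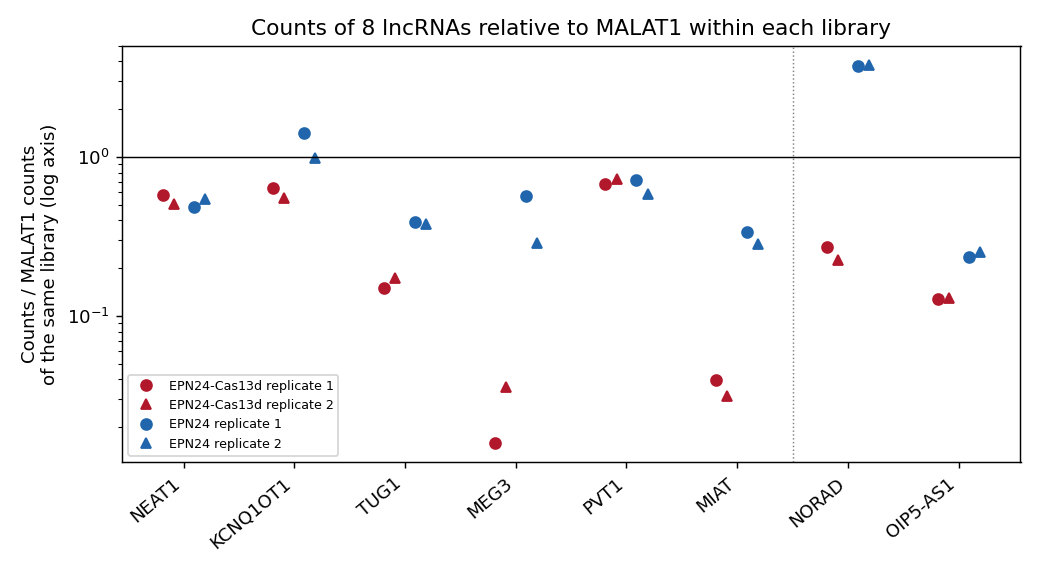
Counts of 8 lncRNAs divided by the MALAT1 counts of the same library (log axis), red for EPN24-Cas13d and blue for EPN24. NEAT1 and PVT1 overlap between groups, whereas NORAD passes from above 3 in EPN24 to below 0.3 with Cas13d.

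Levels per kb of exon also changed order. In EPN24, NORAD led with 50.7 ± 6.46 CPM per kb (SD, n = 2), followed by MALAT1 with 8.19 ± 0.970 and TUG1 with 2.73 ± 0.259. PVT1, NEAT1, MIAT, OIP5-AS1, MEG3 and KCNQ1OT1 followed between 1.84 and 0.937. Of these neighbours, PVT1 overlapped NEAT1, and each of MIAT, OIP5-AS1 and MEG3 overlapped the next in order, the last of which is KCNQ1OT1. In EPN24-Cas13d, MALAT1 led with 6.60 ± 0.337 CPM per kb, followed by NORAD with 2.68 ± 0.492 and PVT1 with 1.62 ± 0.00922. NEAT1, TUG1, OIP5-AS1, KCNQ1OT1, MIAT and MEG3 followed between 1.39 and 0.0641, and here no neighbours overlapped. The exon length of PVT1, MEG3 and MIAT sums alternative exons, and levels of single transcripts were not measured. NORAD made up 42.1% and 46.9% of all counts of the 9 members in EPN24 and 7.75% and 6.63% in EPN24-Cas13d.

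Read density was also set against that of 405 olfactory receptor genes, whose products detect odours in the nose. These had 1.80 and 1.39 counts per kb in the EPN24 libraries and 0.175 and 0.139 in the EPN24-Cas13d libraries. KCNQ1OT1 in EPN24 was at 1.28 and 1.28 times that density, so that reads at the olfactory receptor density alone would give 78.0% and 77.9% of its counts. In EPN24-Cas13d it stood at 9.96 and 9.72 times. MEG3 was at 2.01 and 1.48 times in EPN24 and at 0.986 and 2.48 times with Cas13d, the lowest values of any member in EPN24-Cas13d. MIAT was at 1.74 and 2.13 times without Cas13d and at 3.60 and 3.17 times with it. Of the markers of blood and liver cells, PTPRC was at a mean of 1.18 times in EPN24, CD3E at 4.12, ALB at 1.44, FGB at 1.76 and HBB at 0. The 8 markers of the cell line ranged there from 1.64 times for LHX1 to 38.2 times for NEFM.

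MALAT1 and NORAD stood well above that density in every library. MALAT1 was at 9.32 and 13.5 times in EPN24 and at 163 and 182 times in EPN24-Cas13d, and NEAT1, PVT1, TUG1 and OIP5-AS1 went the same way, from 1.53 to 4.44 times without Cas13d to 14.4 to 46.0 times with it. NORAD was at 57.3 and 84.2 times in EPN24 and at 72.0 and 66.5 times with Cas13d, and the groups overlapped. The other 7 members apart from MEG3 were higher relative to this density with Cas13d, without overlap, as were 73.3% of all tested genes, and no test was made. With this density subtracted from all genes, KCNQ1OT1 was at -0.23 and not called under TMM scaling (adjusted p = 0.510), OIP5-AS1 was at -1.17 and not called (0.100), and MALAT1 was called lower at -1.12 (0.00137). NORAD stayed lower, at -5.17. With subtraction and ERCC scaling together KCNQ1OT1 was at 4.06 and NORAD at -0.87.

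**Figure D4:**
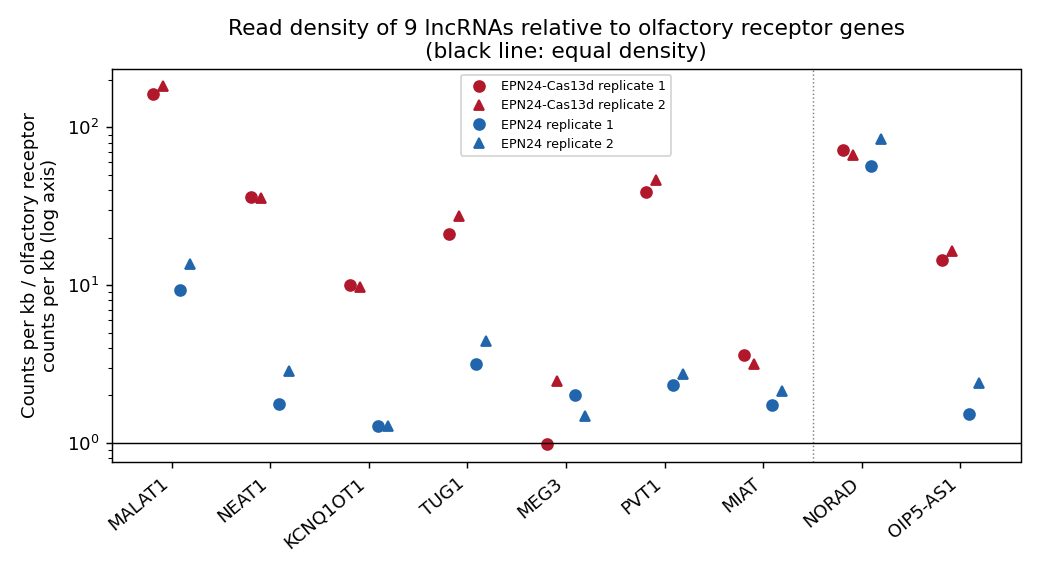
Counts per kb of each lncRNA divided by the counts per kb of all olfactory receptor genes in the same library (log axis), with a black line at equal density. In EPN24 (blue) most members lie within 5 times of the line, MALAT1 and NORAD being the exceptions, and NORAD is at a like height in both groups.

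The fold change of all tested genes moved with GC content, and the members differ in it. The median GC content of tested genes was 49.5%, and 97.3% of them had a value. OIP5-AS1 (38.4%), MALAT1 (40.3%) and NORAD (41.6%) had the lowest GC content among the members, and PVT1 (52.2%) and MIAT (51.8%) the highest. At the GC content of MALAT1 and NORAD, the running trend of all genes stood at -2.53 and -2.26, so MALAT1 (-0.31) lay above it and NORAD (-4.23) below it. MEG3 and MIAT differed from the trend by -3.25 and -3.11. After removal of the GC trend, which was added as a setting once values were known, MALAT1 (1.42), NEAT1 (0.70) and OIP5-AS1 (0.89) were called higher, and NORAD stayed lower at -2.76. MEG3 (-4.04), MIAT (-3.89) and PVT1 (-0.77) were called lower, and KCNQ1OT1 (-0.29) and TUG1 (-0.43) were not called. Calls in both directions were also common among all genes in this setting, with more lower than higher. The number of members called in each direction therefore does not set them apart from other genes. For PVT1 the transcript measured covers 6.71% of its annotated exon bases, so its GC content is uncertain.

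**Figure D5:**
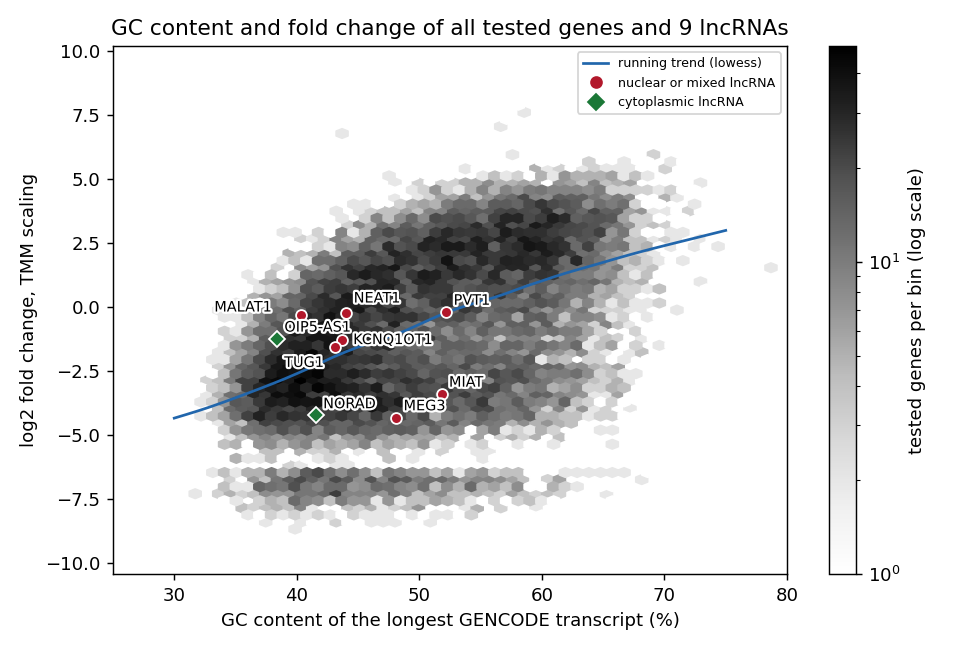
Log2 fold change under TMM scaling against GC content of the longest transcript for all tested genes (grey bins, log colour scale), their running trend (blue line), and the 9 lncRNAs (red, nuclear or mixed, and green, cytoplasmic). MALAT1 and NORAD have like GC content and lie at -0.31 and -4.23, on opposite sides of the trend.

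Other lncRNAs were listed by name as nuclear or cytoplasmic, and their location was not measured here. Most of both the nuclear and the cytoplasmic list were lower under TMM scaling, as were most tested lncRNA genes. Of 18 further nuclear lncRNAs 14 were lower, 1 higher and 3 not called under TMM scaling, with a median log2 fold change of -2.98. Of 11 further cytoplasmic lncRNAs 8 were lower, 2 higher and 1 not called, with a median of -2.51. Among the 3802 tested lncRNA genes 2491 were lower and 722 higher. FTX, a regulator of X inactivation and the gene of that list with the highest mean CPM over both groups, measured 5.75 ± 0.118 against 55.0 ± 2.51 CPM (SD, n = 2), and PCAT1 had a log2 fold change of 1.21, not called with the stricter filter. GAS5, a cytoplasmic snoRNA host, had a log2 fold change of 0.44 (edgeR adjusted p = 0.0414) whose call was lost without any 1 of the 4 libraries, at 0.25 to 0.61, and which turned to -0.13 with total counts. BCYRN1, a short RNA polymerase III transcript, measured 13.3 ± 3.22 against 76.0 ± 13.7 CPM (-2.51). In EPN24, mean read density was 1.83 times that of olfactory receptor genes for FTX, 1.31 for PCAT1, 14.3 for GAS5 and 519 for BCYRN1. It ranged from 0.588 to 55.1 times over the nuclear list and from 1.59 to 519 over the cytoplasmic list. How far reads at the olfactory receptor density add to the list values was not tested. With ERCC scaling 6 of the nuclear list were higher and 1 lower, and 6 of the cytoplasmic list were higher and 0 lower, beside 35.5% higher and 3.73% lower among tested lncRNA genes. FTX and BCYRN1 turned to 0.084 and 0.84 on that scale.

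Messages of proteins that work with the members were counted in the same way. Of 12 paraspeckle and nuclear speckle protein messages 6 were higher, 2 lower and 4 not called under TMM scaling (median 0.32), beside 32.6% higher and 48.2% lower among all tested genes. SRRM2, a speckle scaffold protein, had a log2 fold change of 3.04, and NONO, a paraspeckle protein that binds NEAT1, of 1.98. Of 6 messages of proteins linked to NORAD or OIP5-AS1, 5 were higher and 1 lower (median 2.51), with IGF2BP1 at 4.23 and KHDRBS1 at 2.82. The lower one, PUM2, was named after its value was seen and measured 34.4 ± 0.423 against 70.2 ± 19.2 CPM (SD, n = 2), a log2 fold change of -1.02. With ERCC scaling PUM2 turned to 2.35, and all 12 and all 6 messages were higher, beside 58.4% of all tested genes. With the GC trend removed PUM2 was at 0.63. Of 11 tested messages of genes beside the members 5 were higher, 5 lower and 1 not called (median 0.59). Among them EPB41L1 was at 2.55, and LTBP3 was at 1.84 and turned to -1.08 with the GC trend removed.

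The genes with the pattern most like that of MALAT1 and NORAD were found by the distance between centred log2(CPM + 1) values over the 4 libraries, among 6201 genes of at least 20 CPM. Nearest to MALAT1 were WASHC2C (distance 0.034), H3C10 (0.061) and SRSF4 (0.064), with log2 fold changes of -0.33, -0.34 and -0.36. Nearest to NORAD were DNTTIP2 (0.095), BDP1 (0.12) and RMRP (0.15), with -5.01, -4.26 and -4.05. RMRP, the RNA of RNase MRP, is listed under 2 identifiers, so its value is uncertain. Over so few libraries many genes lie close, and likeness says nothing of shared function.

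Overlapping annotation touches some of these values, since the strand setting of the counting is not given in the sources used here. No other annotated exon overlaps NORAD, so its counts are not shared with another gene through overlapping exons. Sharing through reads that match several places was not tested, and the setting for such reads is not given. Exons of other genes overlap 19.2% of the exon bases of MIAT, 14.4% of TUG1, 7.72% of OIP5-AS1 and 6.21% of MALAT1, and 1.23% to 3.03% of the remaining 4 members. Introns of other genes are left out of these shares. For KCNQ1OT1, antisense to KCNQ1, the 1.23% therefore does not cover reads from unspliced KCNQ1 RNA. How far such reads add to each value was not tested.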

How the data were processed

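Supernatant RNA of HEK293T cells was measured in 4 libraries; per the labels' protocols, ERCC RNA was mixed with 200 µl of supernatant before extraction and libraries had 17 PCR cycles and 150-nt paired reads. Per the submitters' processing notes, STAR 2.7.10a, featureCounts 2.0.1, DESeq2 1.36.0, Trim Galore 0.6.7 and FastQC 0.11.9 were used, with build GRCh38. For annotation release, strand setting and multi-mapping reads, no setting is given in the sources used. Values in the authors' first deposited table are estimated counts per gene, of which 7.82% to 9.19% per library were not whole. The authors' second deposited table holds a mean scaled signal, log2 fold changes, a Wald score and p-values from DESeq2, whose design was not stated.

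Counts were rounded to whole numbers for tests only. Of 61640 rows, 5 belonging to 1 gene with a broken record were left out and 92 ERCC rows were kept out of the tests. Genes were filtered with filterByExpr (20476 tested), scaled by TMM, and tested with edgeR 4.0.16 (robust quasi-likelihood, R 4.3.3) with Benjamini-Hochberg adjustment at 0.05; the SE is the log2 fold change divided by the root of F. Alternatives included ERCC totals, total counts, DESeq2 1.42.0, limma-voom (limma 3.58.1), filters, trends and left-out libraries. A floor of 3 counts was 0.721 to 1.42 CPM, and intervals cover counting error only. Transcript lengths, GC content and motifs came from the longest GENCODE 29 transcript of each gene. The script was tested on simulated data.

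The named genes are the 9 members, the 3 genes nearest in pattern to MALAT1 and to NORAD, and the 2 genes of highest mean CPM in each list; PUM2 was added after its value was seen. Some genes of the lists are not reported here, and the list counts leave them out. The members and lists were chosen with earlier results of these data known.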

Additional observations from a re-analysis of the deposited data

How the results depend on the processing

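NORAD kept its direction and its call in all 17 alternatives, from -5.17 to -2.76 without ERCC totals. ERCC totals turned MALAT1 to 3.06, NEAT1 to 3.13, KCNQ1OT1 to 2.05, TUG1 to 1.80, PVT1 to 3.17, OIP5-AS1 to 2.12, WASHC2C to 3.04, H3C10 to 3.03, SRSF4 to 3.01, FTX to 0.084, BCYRN1 to 0.84 and PUM2 to 2.35. ERCC totals with background subtracted gave MALAT1 3.18, NEAT1 3.95, KCNQ1OT1 4.06, TUG1 2.20, PVT1 3.88, MIAT 0.52, OIP5-AS1 3.13, WASHC2C 3.09, H3C10 3.04, SRSF4 3.07, FTX 0.83, BCYRN1 0.84 and PUM2 2.46. These 2 settings called 6 members higher and 1 lower, with 11960 and 11660 of all genes higher and 477 and 201 lower. With the GC trend removed 3 members were called higher and 4 lower, and more of all genes were likewise called lower than higher. In that setting MALAT1 was at 1.42, NEAT1 at 0.70, OIP5-AS1 at 0.89, WASHC2C at 0.012, SRSF4 at 1.29, LTBP3 at -1.08 and PUM2 at 0.63. With the length trend removed NEAT1 was at 0.23, KCNQ1OT1 at 0.40, PVT1 at 0.37 and H3C10 at 0.055. With no filter MALAT1 was at 0.049, NEAT1 at 0.12, PVT1 at 0.17, WASHC2C at 0.030 and H3C10 at 0.021. GAS5 turned to -0.40 with background subtracted, -0.42 with the stricter filter and -0.13 with total counts. The stricter filter called 4889 genes lower, having fewer genes to test, and background subtraction 5844. The GC setting and the joint setting were chosen after seeing the data, and the causes of these changes were not tested.

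The log2 difference of the cytoplasmic to nuclear ratio, in which NORAD gives most cytoplasmic counts in EPN24, also varied. It was -3.93 for NORAD and MALAT1 alone, -3.29 per kb and -3.65 with background subtracted. Leaving out 1 library gave -3.03 to -2.72. In fits without 1 library, the lone library of a group is assumed to vary like the other group. Same-numbered libraries did not deviate together (r = -0.0036 across 20476 genes). The fit with a replicate block called 6 members lower and 0 higher, and 6545 genes higher and 8496 lower. MEG3 and MIAT, with 4 to 10 counts with Cas13d, are limited by depth.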
